A study of Mus musculus with 9 samples.

Results

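Hearts of adult C57BL/6J mice that carry a premature stop codon in both copies of Mybpc3 (genotype Mybpc3R946X/R946X) were compared by RNA-seq after a high dose of exABE8e or after saline. Each group had 3 libraries, and these 6 are part of a series of 9. The other 3 libraries came from saline-injected hearts with wild-type Mybpc3, and their values are given beside the others as levels only. Both mutant groups share the allele and the strain, and they differ in the injected agent. According to the series description, the base editors were built on SpRY, a Cas9 variant that accepts many target sites, and were carried by an adeno-associated virus (AAV9) for expression in heart muscle cells. The labels do not define exABE8e further. The controls received saline and not a vector without an editor, so effects of the edit, of the editor protein and of the vector cannot be told apart. The labels number the libraries as replicates without saying that each came from its own animal, and p-values then measure only the spread between these libraries.

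All 13636 genes with a mean deposited value of at least 1 over the 6 libraries were tested together, out of 15580 listed. The deposited values are whole numbers that sum to between 999152 and 999382 in each library, so each value is relative to the total of its library. The number of reads behind a value is unknown. A log2 difference is the mean of log2(value + 1) in the treated hearts minus that in the saline-injected mutant hearts, and because of the added 1 it is smaller than the true log2 ratio for genes with low values. Its error is the standard error (SE) from limma, a linear model fitted across all genes, and p-values were adjusted over all 13636 genes by the Benjamini-Hochberg method. A gene was called when its adjusted p was under 0.05. Groups are said not to overlap when all 3 treated values lie above, or all 3 below, all 3 saline values.

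Mybpc3 encodes cardiac myosin-binding protein C, which sits on the thick filament of the sarcomere and restrains the myosin heads that pull on actin. Truncating variants of the human gene are a leading cause of hypertrophic cardiomyopathy, and transcripts with an early stop codon are commonly destroyed by nonsense-mediated decay. An adenine base editor joins a Cas9 nickase to a deaminase and turns an A-T base pair into G-C. Overloaded or diseased hearts often return to a fetal-like programme, in which skeletal actin, beta-myosin heavy chain and the natriuretic peptides are high.

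The reference sequence around the mutated codon is shown because the genotype and the edit both concern it. In the wild-type gene this codon is CGA, for arginine, and lies at chr2:91132942-91132944 on the plus strand of GRCm38, in exon 27 of 35 of transcript ENSMUST00000111430.9, which has 1277 codons. In the coding-strand stretch chr2:91132897-91132989, which is entirely within that exon, the codon is in capitals.
Mybpc3, the mutated codon and its surroundings: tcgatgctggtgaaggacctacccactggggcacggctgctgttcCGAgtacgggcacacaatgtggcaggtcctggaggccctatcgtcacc
Only 1 single-base change turns this codon into a stop codon, namely C1T, counted from the codon's first base, which gives TGA. The labels name the protein change and not the base change of the allele, and the deposited values do not show which base the transcripts carry.

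The libraries did not all carry sex-linked transcripts alike, and this touches every comparison below, those with wild-type levels included. Xist, the RNA that silences an X chromosome in females, was listed at 0 in saline mutant 1 and 2 and at 351 in saline mutant 3. It was at 39 in treated 1 and at 0 in treated 2 and 3. The Y-linked gene Ddx3y was at 97, 85 and 0 in the saline mutant libraries and at 38, 76 and 82 in the treated ones. Uty, Kdm5d and Eif2s3y were likewise at 0 in saline mutant 3 alone among these 6. Wild type 1 held Xist at 119 and all of these Y-linked genes at 0. Wild type 2 and 3 held Xist at 0 and Ddx3y at 78 and 70. Saline mutant 3 thus held Xist with no Y-linked transcripts, and treated 1 held both kinds. These are the 2 libraries meant below as those that held Xist. Saline mutant 3 also lay farthest from the rest along the first principal component, at 25.1 against -15.9 to 4.61 in the other 5 mutant libraries. On that component treated 3, at 0.07, lay between saline mutant 1 and 2, at -0.498 and 4.61. Treated 1 and 2 were at -13.3 and -15.9. Over genes, treated 3 correlated at 0.990, 0.988 and 0.982 with saline mutant 1, 2 and 3, and at 0.983 and 0.985 with treated 1 and 2. Mitochondrially encoded transcripts made up 17 to 20.9% of the saline and 17.6 to 20.7% of the treated libraries. Markers of heart muscle were abundant in all 6 libraries, with summed values of 57700 to 68767 in saline and 63343 to 64589 in treated hearts over 12 of 12 markers.

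A pair of sarcomere genes passed the test: Mybpc3 rose in the treated hearts and Acta1, the skeletal-muscle actin of the fetal programme, fell. They were the 2 genes called of 13636, or 0.0147%, with 1 in each direction (0.00733%). Before adjustment, p was under 0.05 for 1130 genes (8.29%), of which 481 were higher (3.53%) and 649 lower (4.76%). The groups did not overlap for 1339 genes (9.82%). All 3 treated values lay above all 3 saline values for 747 genes (5.48%) and below them for 592 (4.34%). With 3 libraries a group, many genes separate in this way without any true difference. These shares are therefore not a result on their own and serve as the background for the counts below. The median log2 difference over all genes tested was -0.02. The 95% interval of a gene's log2 difference had a median half-width of 0.381, which limits the size of difference that 3 libraries a group can show. In the text below, "rose" and "fell" are kept for the 2 called genes, and other genes are described by their values.

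Mybpc3 (ENSMUSG00000002100.15, chr2:91118144-91136516, plus strand) had values of 133, 142 and 186 in the saline mutant hearts and 1024, 1374 and 1332 in the treated hearts. The groups were far apart, and the lowest treated library was above the highest saline library by several fold. The mean was 8.09 times higher after treatment, at 1243 ± 191 against 154 ± 28.4 (SD, n = 3 each). The log2 difference was 3.01 (SE 0.163, 95% interval 2.64 to 3.38, limma adjusted p = 0.000254). The wild-type hearts were at 1510, 1795 and 2039, so all 3 treated values lay between those of the saline mutant and the wild-type libraries. Without the 2 libraries that held Xist, the log2 difference of Mybpc3 was 3.29 (limma adjusted p = 0.000288).

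Acta1 (ENSMUSG00000031972.5, chr8:123891769-123894751, minus strand) stood at 4810, 4989 and 4824 in the saline mutant hearts and at 971, 1087 and 841 in the treated hearts. The saline mutant libraries were nearly alike, and each treated library was several fold below them. The saline mean was 5.04 times the treated mean, 4874 ± 99.6 against 966 ± 123 (SD, n = 3 each). The log2 difference of Acta1 was -2.34 (SE 0.127, 95% interval -2.63 to -2.05, limma adjusted p = 0.000254). The wild-type values were 266, 437 and 597, below every treated value. Without the 2 libraries that held Xist, the log2 difference of Acta1 was -2.36 (limma adjusted p = 0.0146).

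**Figure D1:**
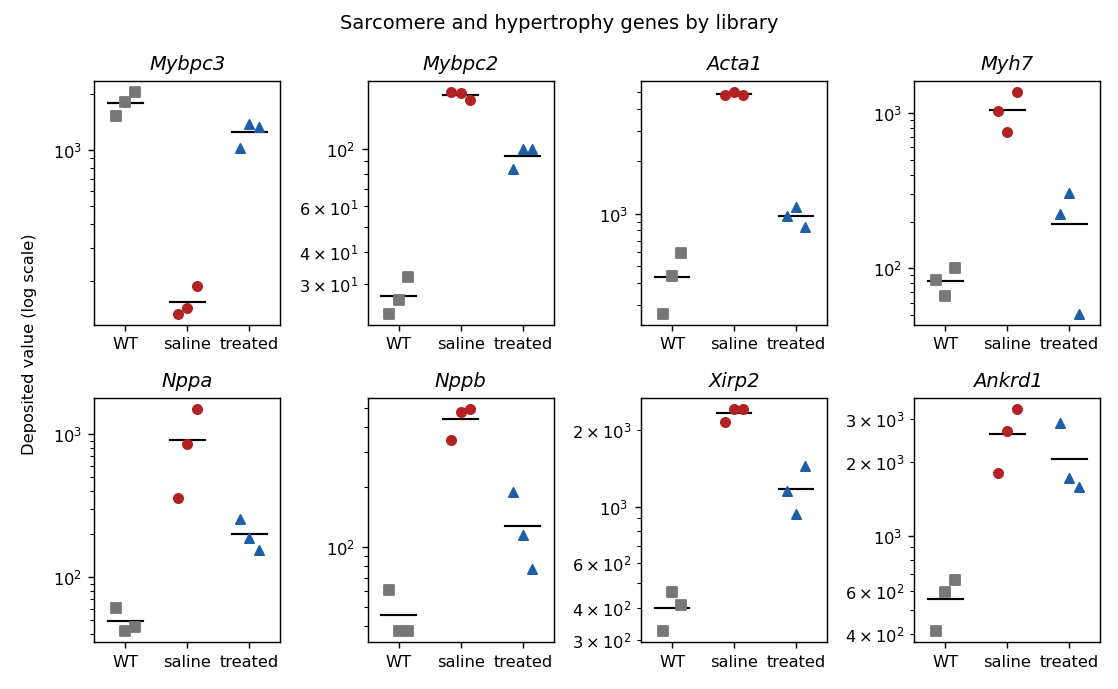
Deposited values of 8 sarcomere and hypertrophy genes in every library, on log axes: squares are the wild-type, circles the saline mutant and triangles the treated libraries, and bars are group means (n = 3 each). Treated and saline mutant libraries do not overlap for any of the 8 genes except Ankrd1, and only Mybpc3 and Acta1 passed the test.

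Among the genes next to Mybpc3 on chromosome 2, no difference of comparable size was seen. Of the 12 tested genes of that list, which includes Mybpc3 itself, 2 had treated values above all saline values and none below. Over all genes these shares were 5.48% and 4.34%. The median log2 difference of the list was -0.01. The other gene without overlap was Rapsn, which clusters acetylcholine receptors at the nerve-muscle junction, at 9, 8 and 8 against 10, 10 and 12 (log2 difference 0.32, limma adjusted p = 0.616). The 17 genes of nonsense-mediated decay had no member higher and 1 lower without overlap, against 5.48% and 4.34% of all genes. Their median was -0.06. The 12 tested deaminase and A-to-I editing genes had no member without overlap in either direction, with a median of -0.02.

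Within the thick filament, the paralog Mybpc2, the fast skeletal isoform of myosin-binding protein C, was at 167, 165 and 156 in saline mutant and 84, 100 and 100 in treated hearts. The groups did not overlap and the wild-type values of 23, 26 and 32 were lower still, but the log2 difference of -0.78 did not pass the test (SE 0.108, limma adjusted p = 0.0841). The slow beta-myosin heavy chain gene Myh7 was at 1024, 759 and 1364 in saline mutant hearts and at 223, 307 and 51 in treated hearts. All treated values of Myh7 were below all saline values, but treated 3 was several fold below the other treated libraries, and the log2 difference of -2.74 had an SE of 0.574 (limma adjusted p = 0.214). The wild-type values of Myh7 were 84, 66 and 100, so treated 3 lay below them and the other treated libraries above. The main adult heavy chain gene Myh6 overlapped, at 23965, 21458 and 16937 against 15229, 22506 and 21627 (log2 difference -0.08, limma adjusted p = 0.957).

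The kinase gene Mylk4, a relative of the cardiac myosin light chain kinase, had treated values of 83, 126 and 144 against 64, 53 and 41 in saline mutant hearts. These groups did not overlap, and the wild-type libraries were higher again at 200, 246 and 252. The log2 difference of Mylk4 was 1.13 (limma adjusted p = 0.197). Of the 18 tested thick filament genes, 5 were higher and 2 lower without overlap, against 5.48% and 4.34% of all genes, and the median log2 difference was -0.08.

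Thin filament genes other than Acta1 did not pass the test. Actc1, the adult cardiac actin gene, was at 13680, 12664 and 12481 in saline mutant and 14449, 11065 and 11730 in treated hearts, with overlap (log2 difference -0.07, limma adjusted p = 0.944). Acta2, the smooth-muscle actin gene, was at 118, 118 and 117 against 186, 170 and 161, so this actin was higher in each treated library while Acta1 was lower (log2 difference 0.54, limma adjusted p = 0.172). The fetal troponin I gene Tnni1 was near the floor of the values, at 2, 2 and 4 against 0, 1 and 1. Cfl2, a cofilin that trims actin filaments in muscle, was at 467, 479 and 519 against 438, 368 and 392 (log2 difference -0.29, limma adjusted p = 0.515). Of 17 tested thin filament genes, 4 were higher and 3 lower without overlap, against 5.48% and 4.34% of all genes. The median was 0.05.

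The hypertrophy and fetal programme list had members that were lower after treatment and members that were not. Of its 20 tested genes, 6 had treated values below all saline values and none above, against 4.34% and 5.48% of all genes, and 4 had a log2 difference above 0. The 6 were Acta1, Nppb, Xirp2, Myh7, Nppa and Tnni1, and Acta1 alone passed the test. The median log2 difference of the list was -0.35. Without treated 1, 12 were lower without overlap, against 7.38% of all genes. The median was -0.41 without the 2 libraries that held Xist, -0.21 without saline mutant 3 and -0.18 without treated 3.

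The natriuretic peptide genes encode hormones that the stretched heart secretes to lower blood volume. Nppb was at 344, 477 and 490 in saline mutant hearts and at 188, 115 and 78 in treated hearts. The groups did not overlap, and wild-type hearts were lower at 61, 38 and 38 (log2 difference -1.85, SE 0.288, limma adjusted p = 0.139). Nppa was at 356, 858 and 1489 in saline mutant and at 256, 187 and 155 in treated hearts, again without overlap, and at 61, 42 and 45 in wild-type hearts. The saline mutant values of Nppa spanned several fold, and the log2 difference was -1.97 (SE 0.445, limma adjusted p = 0.253). Without saline mutant 1, the lowest of them and the nearest to the treated values, the log2 difference of Nppa was -2.53 (limma adjusted p = 0.0327). Dropping that library favours a call, and Nppa passed the test in only 1 of 21 alternatives. Without treated 2, its limma adjusted p was 0.859.

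The receptors and processing enzymes of these peptides were mixed in direction. Mme, the protease neprilysin that degrades natriuretic peptides, was at 4, 4 and 2 against 5, 7 and 8. Prkg1, the cGMP-dependent kinase downstream of their receptors, was at 36, 37 and 44 against 19, 23 and 34. Neither passed the test, with limma adjusted p of 0.439 for Mme and 0.452 for Prkg1. Of the 9 tested genes of this group, 1 was higher and 3 were lower without overlap, against 5.48% and 4.34% of all genes. The median log2 difference was 0.03.

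Several stress genes that were higher in both mutant groups than in every wild-type library had overlapping treated and saline values. Ankrd1, a stretch-induced repeat protein of the Z-disc, was at 1811, 2695 and 3291 in saline mutant and 2897, 1727 and 1594 in treated hearts, with overlap. The wild-type values of Ankrd1 were 411, 591 and 663, well below all 6 (log2 difference -0.34, limma adjusted p = 0.794). Myot, which crosslinks actin at the Z-disc, was at 261, 238 and 245 against 243, 229 and 106, and at 14, 9 and 18 in wild-type hearts. Edn3, which encodes an endothelin peptide, was at 39, 51 and 40 against 64, 38 and 26 and was listed at 0 in all 3 wild-type libraries. None of these 3 genes separated the groups, and limma adjusted p was 0.695 for Myot and 0.951 for Edn3.

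Other Z-disc genes lay between. Xirp2, an actin-binding protein of the intercalated disc and Z-disc, was at 2146, 2407 and 2411 in saline mutant and 1155, 932 and 1442 in treated hearts, and at 325, 461 and 411 in wild-type hearts. The treated libraries of Xirp2 formed a separate middle level (saline mean 1.97 times the treated mean, SE of the log2 difference 0.164, limma adjusted p = 0.139). Fhl2, a LIM-domain protein of the sarcomere, was higher in each treated library, at 1452, 1093 and 1204 against 873, 743 and 759 (log2 difference 0.65, limma adjusted p = 0.203). Csrp3, the muscle LIM protein, was lower in each treated library, at 1768, 1704 and 1704 in saline mutant and 1543, 1220 and 1382 in treated hearts. Ankrd2, a relative of Ankrd1, was at 5, 3 and 5 in saline mutant and 2, 2 and 2 in treated hearts. Of 19 tested Z-disc and stretch genes, 1 was higher and 4 were lower without overlap, against 5.48% and 4.34% of all genes. The median was -0.17, or -0.07 without treated 3 and -0.26 without saline mutant 2.

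The upstream sequences of Acta1 and Nppb are shown because both genes belong to the fetal programme and were lower in each treated library. They are the 250 bases before the annotated start in RefSeq (GRCm38.p6), and capitals mark the letters CATTCC, or GGAATG where they lie on the other strand, the core of the muscle MCAT element bound by TEAD factors.
Acta1, chr8:123894776-123895025, minus strand: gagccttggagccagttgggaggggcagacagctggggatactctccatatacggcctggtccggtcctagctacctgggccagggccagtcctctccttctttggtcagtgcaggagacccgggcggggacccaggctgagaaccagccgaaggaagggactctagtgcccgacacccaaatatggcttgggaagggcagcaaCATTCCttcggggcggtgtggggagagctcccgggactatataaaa
Nppb, chr4:147985650-147985899, plus strand: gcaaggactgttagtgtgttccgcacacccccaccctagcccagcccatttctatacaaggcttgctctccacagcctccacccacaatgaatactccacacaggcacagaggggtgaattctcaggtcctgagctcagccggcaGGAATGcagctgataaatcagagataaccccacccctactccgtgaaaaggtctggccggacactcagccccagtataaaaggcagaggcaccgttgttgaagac
Each window holds 1 match, as do 12.6% of the 32851 promoter windows listed, in either orientation and 1 or more times. The windows of Nppa and Mybpc3 hold 0 matches. Of the 2 windows listed for Myh7, 1 holds 1 match and the other 0. A match describes the letters only, and binding was not measured.

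Genes of the cardiac action potential included some of the clearest separations between the groups. Kcnj3, a subunit of the acetylcholine-gated potassium channel, was at 10, 11 and 9 in saline mutant and 23, 30 and 28 in treated hearts, with wild-type values of 54, 48 and 51. The 3 groups were fully separate, and the log2 difference of 1.34 was just short of the threshold (SE 0.150, limma adjusted p = 0.0576). Scn4b, an auxiliary subunit of the sodium channel, was at 4, 3 and 2 against 12, 18 and 13, with wild-type values of 24, 21 and 25 (log2 difference 1.95, SE 0.234, limma adjusted p = 0.0656). Both genes passed under some other settings, Kcnj3 in 10 of 21 and Scn4b in 8 of 20.

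Subunits of the fast transient outward current lay in the same direction. Kcnd2, a pore subunit of that current, was at 8, 6 and 5 in saline mutant and 12, 21 and 21 in treated hearts (log2 difference 1.35, limma adjusted p = 0.172). Its partner Kcnip2 was at 120, 119 and 99 against 145, 180 and 174 (log2 difference 0.56, limma adjusted p = 0.257). Wild-type hearts were above both groups, at 30, 38 and 37 for Kcnd2 and at 206, 224 and 217 for Kcnip2. Kcnv2, a modifier of other potassium channels, was at 5, 5 and 5 against 8, 7 and 9. Of 19 potassium channel genes, 5 were higher without overlap and none lower, against 5.48% of all genes, and 14 had a log2 difference above 0, with a median of 0.21. The median was 0.08 without treated 3 and 0.14 without saline mutant 3. Groups overlapped for the potassium channel genes outside those 5. At an unadjusted p under 0.05, 5 of the list were higher and 1 was lower, against 3.53% and 4.76% of all genes. The lowest log2 difference of the list was -0.58, for Kcna4, which is named after its values were seen.

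**Figure D2:**
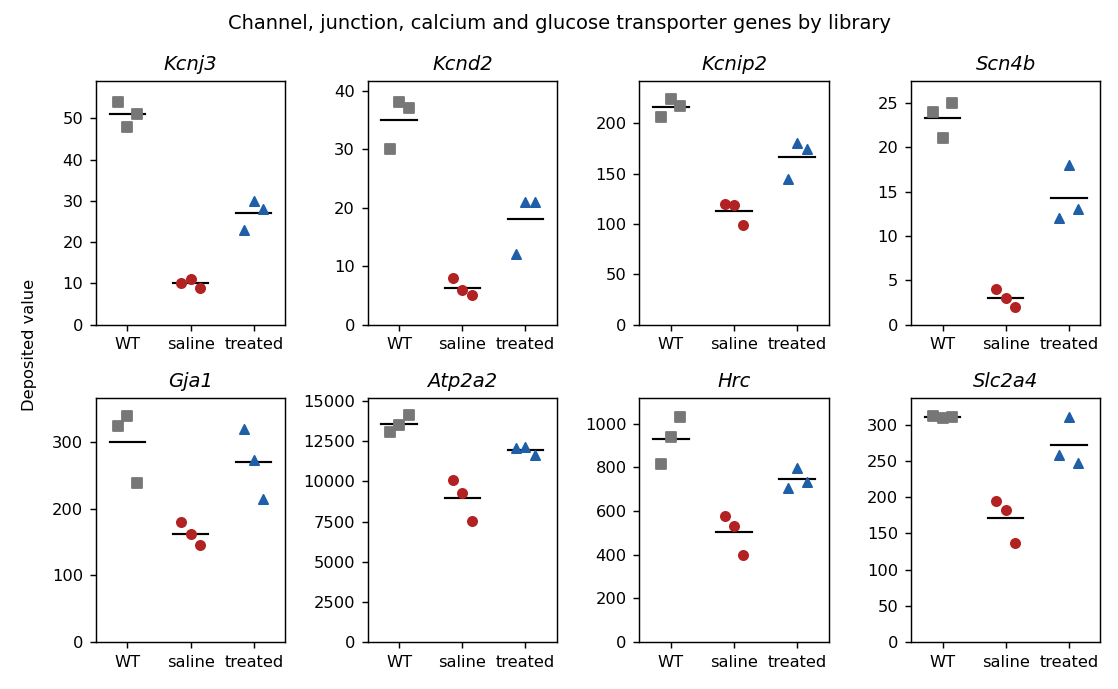
Deposited values of 8 channel, junction, calcium and glucose transporter genes in every library, on linear axes that start at 0: squares are the wild-type, circles the saline mutant and triangles the treated libraries, and bars are group means (n = 3 each). Every treated library lies above every saline mutant library for each of the 8 genes, and none of the 8 passed the test.

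Conduction genes were mixed in direction. Gja1, which encodes connexin 43 of the ventricular gap junction, was at 180, 162 and 146 in saline mutant and 320, 274 and 215 in treated hearts, with wild-type values of 325, 339 and 238. It was higher in each treated library than in every saline mutant library, and the treated and wild-type values overlapped (log2 difference 0.71, SE 0.156, limma adjusted p = 0.229). Of 16 conduction and junction genes, 5 were higher and 2 lower without overlap, against 5.48% and 4.34% of all genes, with a median of 0.17.

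Kcnj3 and Nppa are also markers of atrial muscle, and the amount of atrium in each piece of tissue was not given. Of 11 atrial markers, 6 were tested and the other 5 were not analysed here. The summed value of the 6 was 434 to 1588 in saline mutant, 275 to 358 in treated and 194 to 214 in wild-type hearts. Kcnj3 was higher and Nppa lower in each treated library, so these atrial markers moved in opposite directions. Of the others, Stard10, a lipid transfer protein, was at 6, 3 and 6 against 10, 9 and 8, and Kcnj5, the partner of Kcnj3, overlapped at 46, 50 and 44 against 50, 57 and 66. The part of atrial tissue in the differences of Kcnj3 and Nppa was not tested.

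Calcium handling genes mostly overlapped between the groups. Atp2a2, the pump that returns calcium to the sarcoplasmic reticulum, was at 10066, 9271 and 7538 in saline mutant and 12108, 12136 and 11677 in treated hearts, without overlap (log2 difference 0.43, limma adjusted p = 0.519). Hrc, a calcium-binding protein inside that store, was at 578, 532 and 399 against 707, 794 and 733 (log2 difference 0.58, limma adjusted p = 0.331). Pln, the inhibitor of the pump, was at 1116, 1092 and 1148 against 1300, 1137 and 1298, with a log2 difference of 0.15. Trdn and Asph, which encode triadin and junctin at the release channel, had log2 differences of -0.28 and -0.23. Of 20 tested genes of calcium handling, 2 were higher and 1 was lower without overlap, against 5.48% and 4.34% of all genes. The median was 0.04.

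Metabolic genes showed small differences spread over many members. Of 30 genes of fatty acid oxidation, 16 were higher without overlap and none was lower, against 5.48% and 4.34% of all genes, and 26 had a log2 difference above 0. No member passed the test, and 5 were higher at an unadjusted p under 0.05, against 3.53% of all genes. The median log2 difference was 0.23. The count without overlap depended on the scaling of the libraries and was 9 with median-of-ratios factors, 8 with upper-quartile factors and 10 after quantile normalization. Under these scalings 7.55%, 6.99% and 7.43% of all genes were higher without overlap. The median was 0.14 without the 2 libraries that held Xist and 0.12 without saline mutant 3 alone.

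Acot1, a thioesterase induced by fatty acids, was at 12, 10 and 9 in saline mutant and 16, 15 and 21 in treated hearts, the largest log2 difference of the list at 0.69 (limma adjusted p = 0.331). Acaa2, the last enzyme of the beta-oxidation cycle, was at 547, 497 and 380 against 622, 590 and 706, with wild-type values of 940, 809 and 949. Slc27a1, a fatty acid transporter, and Acadm, the medium-chain dehydrogenase, had log2 differences of 0.49 and 0.31. Pdk4, a kinase that holds back glucose oxidation when fat is burned, went the other way with overlap, at 3043, 2337 and 1913 against 1307, 1675 and 1987 (log2 difference -0.55), and is named after its values were seen.

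Of 24 genes of glucose use, 10 were higher without overlap and none lower, against 5.48% and 4.34% of all genes, with a median of 0.21. Under the 3 scalings named above the count was 6, 8 and 8, against 7.55%, 6.99% and 7.43% of all genes. Without the 2 libraries that held Xist the median was 0.15, and 0.13 without saline mutant 3 alone. Slc2a4, the insulin-regulated glucose transporter, was at 195, 183 and 137 in saline mutant and 258, 311 and 247 in treated hearts (log2 difference 0.67, limma adjusted p = 0.273). Ldha, the lactate dehydrogenase subunit of working muscle, was at 499, 478 and 536 against 711, 639 and 626. Pfkfb1, a regulator of glycolysis, was at 1, 1 and 1 against 3, 4 and 4, and Pdk2, a relative of Pdk4, had a log2 difference of 0.40. Each of these 4 was higher in each treated library, and none passed the test.

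Nuclear genes of the respiratory chain had a smaller median. Of 44 genes, 11 were higher without overlap and none lower, against 5.48% and 4.34% of all genes, and the median log2 difference was 0.10. The count was 2, 3 and 6 under the same scalings, against 7.55%, 6.99% and 7.43% of all genes, and it was 20 without treated 2, against 6.65%. The median was -0.02 without the 2 libraries that held Xist, 0.03 without treated 1 and 0.05 without saline mutant 3. Sdhc, a subunit of complex II, was the member with the smallest p, at 328, 326 and 301 against 442, 360 and 372 (log2 difference 0.29, limma adjusted p = 0.55). Ak4, a mitochondrial adenylate kinase, stood further apart, at 14, 10 and 10 against 28, 25 and 29, with wild-type values of 39, 49 and 42 (log2 difference 1.21, limma adjusted p = 0.0725). Ckb, the brain-type creatine kinase, was at 73, 74 and 81 against 59, 47 and 66.

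Transcripts made from mitochondrial DNA did not move together. The ribosomal RNA mt-Rnr1 was at 1225, 1143 and 1251 in saline mutant and 1907, 1892 and 1916 in treated hearts, with no overlap and narrow groups (log2 difference 0.66, limma adjusted p = 0.139). The complex I transcript mt-Nd6 was lower in each treated library, at 1343, 976 and 1484 against 2898, 2402 and 1725 (log2 difference -0.87, limma adjusted p = 0.323). The short transcripts mt-Atp8 and mt-Nd4l had log2 differences of -0.93 and -0.81. Of 15 transcripts, 3 were higher and 4 lower without overlap, against 5.48% and 4.34% of all genes. The median was -0.14, between -0.30 without saline mutant 3 and -0.02 without treated 2. The libraries were made from RNA selected for poly(A) tails, and the share of each such transcript that this step retains was not measured.

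**Figure D3:**
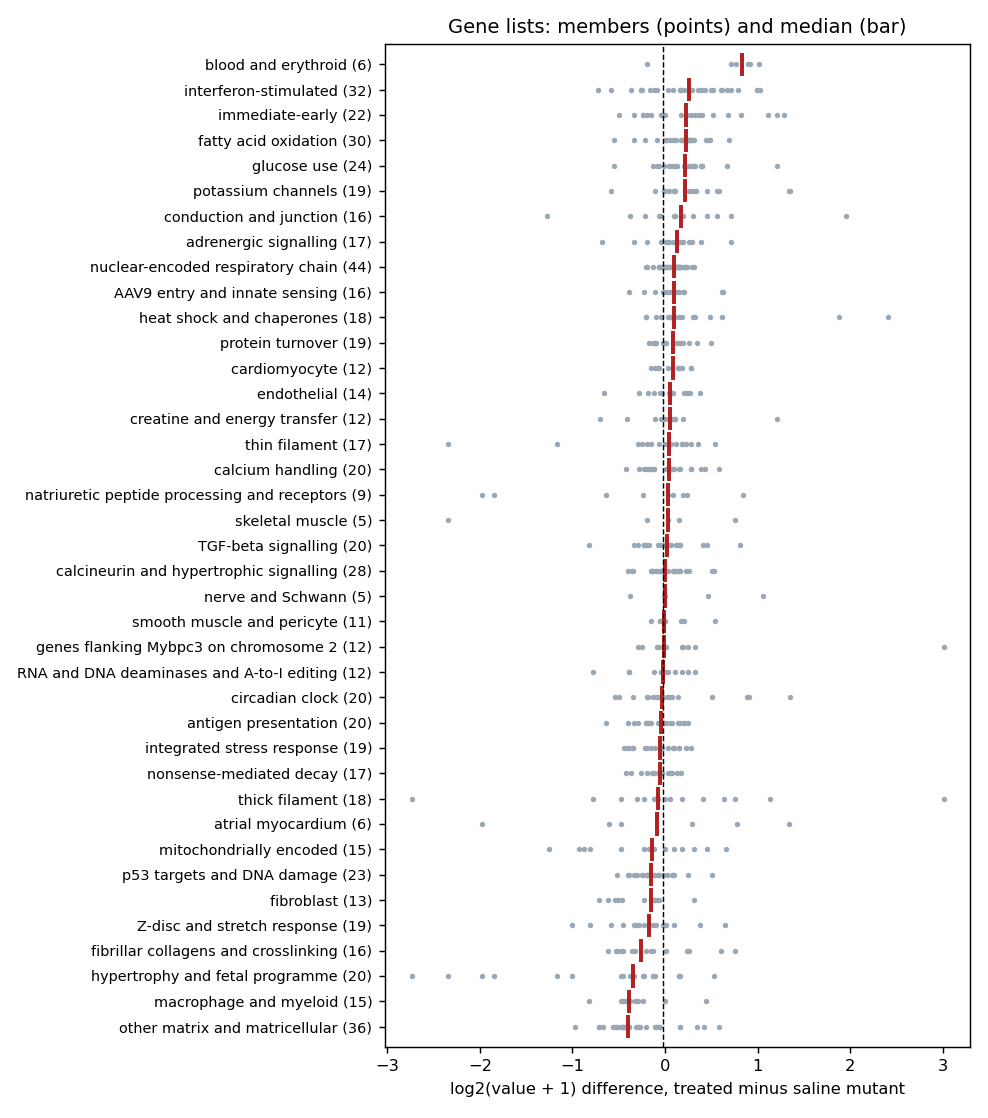
Log2 difference, treated minus saline mutant, of every tested member (points) of each list with at least 5 tested members, and the median of the list (bar); the number of members is in parentheses and the dashed line is the median of all genes. Medians run from -0.40 for matrix genes to 0.83 for blood genes, and most lists lie close to the dashed line.

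Genes of the extracellular matrix, made mainly by fibroblasts, were lower on balance, and for most the groups overlapped. Of 36 matricellular and other matrix genes, 1 was higher and 3 were lower without overlap, against 5.48% and 4.34% of all genes, 8 were lower at an unadjusted p under 0.05 against 4.76% of all genes, and 5 had a log2 difference above 0. The median was -0.40, the lowest of the lists with at least 5 tested members. It was -0.17 without saline mutant 3, the mutant library that held Xist and no Y-linked transcripts. It was -0.24 without treated 2, -0.48 without treated 3 and -0.55 without saline mutant 1. The count lower without overlap was 20 without treated 3, against 12.1% of all genes. It was 14 without saline mutant 1, against 14% of all genes, and 7 without treated 1, against 7.38%. Lum, a proteoglycan that spaces collagen fibres, was at 190, 188 and 337 against 141, 111 and 174, and Dcn, a related proteoglycan, was at 907, 905 and 1384 against 774, 685 and 819. Fbln1, a fibulin of elastic fibres and basement membranes, was higher after treatment, at 62, 62 and 74 against 93, 98 and 75. Neither Postn, at 119, 209 and 428 against 160, 90 and 237, nor the protease inhibitor Timp1, at 7, 6 and 7 against 13, 2 and 5, separated the groups.

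Among fibrillar collagens and their processing enzymes, 1 of 16 genes was lower without overlap and none higher, against 4.34% and 5.48% of all genes. Their median was -0.26 and became 0.03 without saline mutant 3, -0.12 without treated 2 and -0.45 without saline mutant 1. Col1a1, a chain of the main scar collagen, was that gene, at 320, 360 and 435 against 261, 218 and 305 (log2 difference -0.51, limma adjusted p = 0.44). Col3a1 overlapped, at 738, 928 and 1305 against 562, 515 and 860 (log2 difference -0.61, limma adjusted p = 0.562). In each of these genes saline mutant 3 was the highest library. Fibroblast markers, 13 of 13 tested, summed to 4254 to 6010 in saline mutant and 4153 to 4563 in treated hearts. Fewer cells of a type and less RNA per cell cannot be told apart in bulk tissue, and the part of fibroblast number in the matrix differences was not tested.

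Macrophage markers were highest in the same library. Of 15 tested of 17, none was without overlap in either direction, 1 had a log2 difference above 0, and the median was -0.39, or -0.04 without the 2 libraries that held Xist, -0.14 without saline mutant 3 and -0.61 without saline mutant 1. Their summed value was 529 to 1031 in saline mutant and 509 to 673 in treated hearts. Csf1r, the receptor for macrophage growth factor, was at 72, 85 and 113 against 47, 68 and 82, and Trem2, a receptor of lipid-laden macrophages, was at 3, 4 and 9 against 2, 2 and 3. Of 17 lymphocyte markers, 1 reached a mean value of 1. Endothelial markers had 1 of 14 higher without overlap and a median of 0.06, and cardiomyocyte markers had 3 of 12 and a median of 0.08. The share over all genes was 5.48%. The cardiomyocyte count was 1 with median-of-ratios factors, 0 with upper-quartile factors and 0 when rescaled without mitochondrially encoded genes. The endothelial count was 2 under each. Under these scalings 7.55%, 6.99% and 7.54% of all genes were higher without overlap.

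Red-cell transcripts were higher in each treated library. Hba-a1, an alpha-globin gene, was at 25, 26 and 27 in saline mutant and 47, 47 and 54 in treated hearts (log2 difference 0.90, SE 0.114, limma adjusted p = 0.0656). Hbb-bs, a beta-globin gene, was at 33, 40 and 47 against 73, 76 and 79 (log2 difference 0.92, limma adjusted p = 0.139). Alas2, the red-cell enzyme of haem synthesis, was at 2, 2 and 3 against 5, 6 and 6, and Hbb-bt was at 7, 8 and 7 against 11, 13 and 16. The groups were separate for 5 of 6 tested blood markers, against 9.82% of all genes in either direction. The 6 markers summed to 76 to 99 in saline mutant, 147 to 170 in treated and 112 to 327 in wild-type hearts. The globin genes have near-identical copies, and reads may be split between them. Whether blood left in the tissue takes part in other differences was not tested.

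Over all genes tested, members of the lists included, 36 were at least 2-fold higher without overlap and 33 at least 2-fold lower. Higher genes outside the groups above included Ces1d, a lipase of the carboxylesterase family, at 24, 15 and 14 against 48, 61 and 58 with wild-type values of 99, 97 and 114 (log2 difference 1.63, limma adjusted p = 0.0656). The gene A530016L24Rik was at 9, 7 and 5 against 22, 24 and 22 with wild-type values of 48, 38 and 40 (log2 difference 1.59, limma adjusted p = 0.0656). In both, the treated libraries formed a middle level that overlapped neither of the other groups. Csdc2, an RNA-binding protein, was at 38, 34 and 24 against 74, 96 and 65, and overlapped the wild-type values of 73, 68 and 94. Klhl33, a Kelch-like protein, was at 9, 9 and 8 against 16, 26 and 28. The phospholipase gene Pla2g5 was at 6, 2 and 3 against 9, 15 and 13, with wild-type values of 28, 32 and 28.

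**Figure D4:**
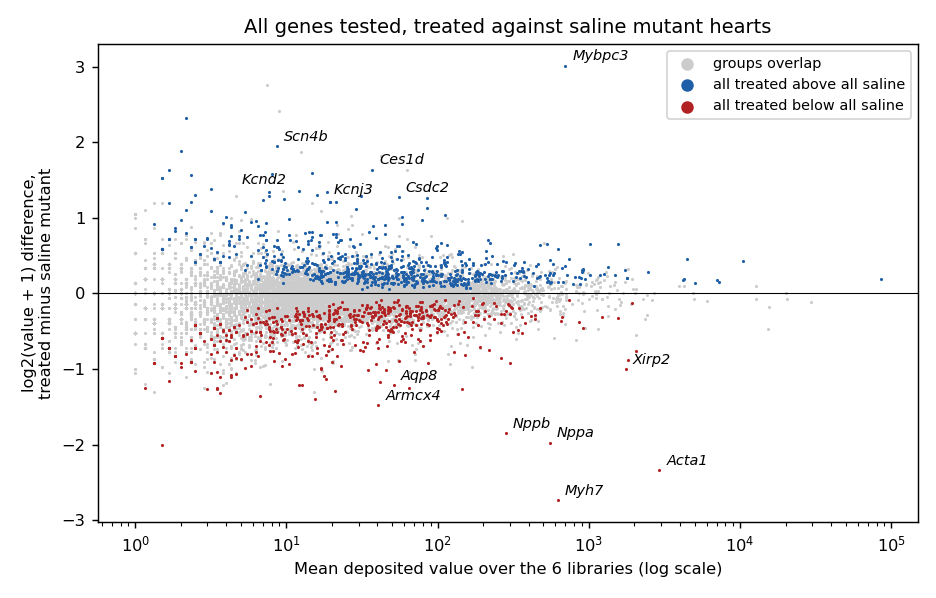
Log2 difference, treated minus saline mutant, of each of the 13636 genes tested against its mean deposited value over the 6 libraries (log axis); blue genes are higher and red genes lower in all treated than in all saline mutant libraries, and grey genes overlap. Mybpc3 is the highest point and Myh7 the lowest, and Mybpc3 and Acta1 are the 2 called genes.

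Genes with treated values below all saline values, some by less than 2-fold, included the water channel Aqp8, at 78, 75 and 62 in saline mutant and 33, 22 and 38 in treated hearts, with wild-type values of 2, 1 and 3 (log2 difference -1.21, limma adjusted p = 0.139). Another water channel, Aqp4, went the other way and was listed at 0 in all saline mutant libraries, at 2, 6 and 5 in treated and at 7, 15 and 10 in wild-type hearts (limma adjusted p = 0.0841). Ccnd2, a cyclin that drives entry into the cell cycle, was at 351, 418 and 408 against 213, 166 and 246, and at 102, 128 and 108 in wild-type hearts (log2 difference -0.92, limma adjusted p = 0.145). Each of these 3 genes had treated values between the other groups. Armcx4 was at 69, 52 and 54 against 11, 19 and 38 (log2 difference -1.48, limma adjusted p = 0.316). Neb, the giant ruler protein of skeletal thin filaments, was at 32, 24 and 28 against 16, 16 and 14. Sh2d4a, Sept6 and E230013L22Rik had log2 differences of -1.02, -0.91 and -0.76, without overlap.

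In stress and immune genes, libraries of the same group lay far apart. Hspa1a and Hspa1b, the heat-inducible HSP70 chaperones, were at 29, 19 and 2 and at 42, 22 and 2 in treated 1, 2 and 3. In the saline mutant libraries they were at 2, 1 and 1 and at 3, 2 and 4. Treated 1 and 2 were thus high and treated 3 was at the saline level, and limma adjusted p was 0.439 for Hspa1a and 0.602 for Hspa1b. Without treated 3, the log2 differences were 3.42 for Hspa1a and 3.01 for Hspa1b, and both passed the test (limma adjusted p = 0.0102 and 0.0395). That setting drops the treated library at the saline level, which favours a call. Hspa1a passed in 1 of 20 alternatives and Hspa1b in 1 of 21. Without treated 2, limma adjusted p was 0.989 for both. Bag3, the partner of HSP70 in sarcomere protein turnover, had the same order, at 371, 383 and 204 in treated against 234, 217 and 205 in saline mutant hearts. Hsph1 did as well, at 196, 107 and 68 in treated against 67, 83 and 71 in saline mutant hearts. None of the 18 heat shock and chaperone genes was without overlap.

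Interferon-stimulated genes respond to interferon and are part of innate responses, that to viral nucleic acid among them. None of the 32 was without overlap in either direction, and the median log2 difference was 0.26. That median was -0.30 without treated 2, -0.14 without saline mutant 1 and 0.69 without treated 3. Their mean log2(value + 1) was 3.54, 4.91 and 4.73 in the saline mutant and 4.41, 5.76 and 3.74 in the treated libraries, so treated 2 was the highest and saline mutant 1 the lowest of the 6. Ifit3, an interferon-induced antiviral gene, was at 18, 48 and 68 against 38, 499 and 25, and is named after its values were seen. Oas2, a sensor of double-stranded RNA, was at 8, 20 and 21 against 51, 47 and 13. The 20 genes of antigen presentation and the 16 tested genes of AAV9 entry and innate sensing had no member without overlap.

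**Figure D5:**
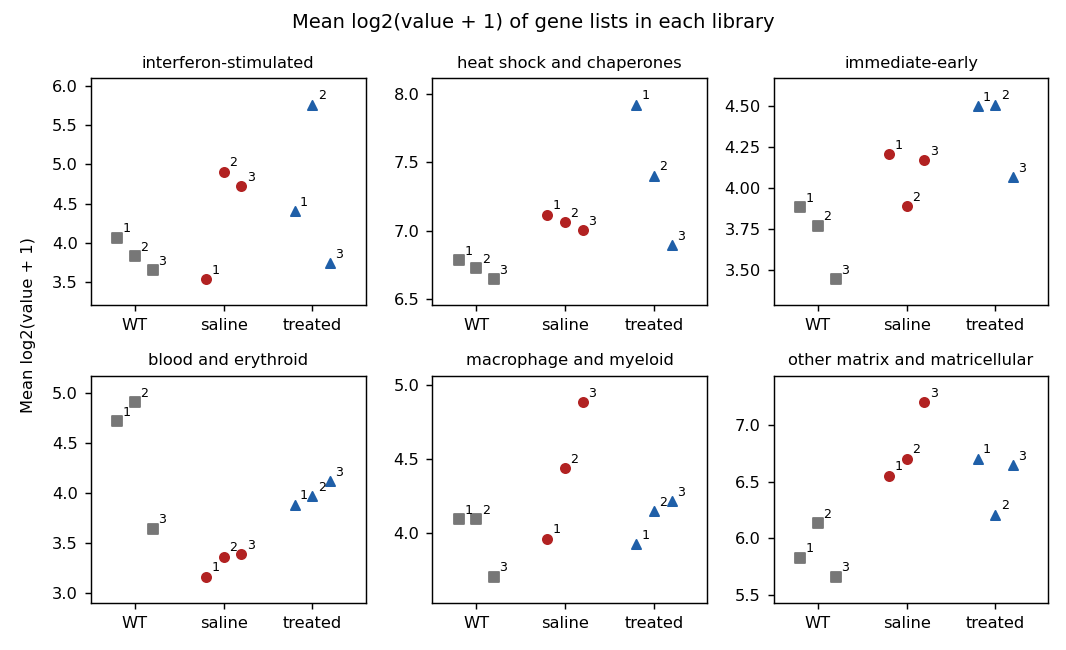
Mean log2(value + 1) of 6 gene lists in each library, with replicate numbers beside the points: squares are the wild-type, circles the saline mutant and triangles the treated libraries. Treated libraries spread widely for interferon-stimulated and heat shock genes, blood genes separate the treated from the saline mutant libraries, and saline mutant 3 is the highest library for macrophage and matrix genes.

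Immediate-early genes, which respond within minutes to stress or handling, were higher on balance. Of 22 tested, 4 were higher and 1 lower without overlap, against 5.48% and 4.34% of all genes. Without treated 3, 8 were higher, against 9.82% of all genes. The median was 0.23, or 0.14 without saline mutant 2 and 0.15 without treated 2. Dusp1, a phosphatase that ends kinase signalling, was at 53, 48 and 55 against 91, 96 and 68 (log2 difference 0.69, limma adjusted p = 0.216). The nuclear receptor gene Nr4a1 was at 17, 8 and 9 against 25, 40 and 18, and Zfp36, which promotes decay of cytokine messages, was at 32, 32 and 36 against 45, 51 and 38. Of 23 p53 target and DNA damage genes, 3 were lower and none higher without overlap, against 4.34% and 5.48% of all genes. Their median was -0.15, or -0.03 without saline mutant 3.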

How the data were processed

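Heart RNA selected for poly(A) tails was sequenced, and the submitters' processing notes name HISAT2, HTSeq, DESeq2 and the build mm10 without versions or roles. The values deposited by the authors are a score with no stated unit: whole numbers with nearly equal library totals, as a rounded per-total scaling would give, so that low values are coarse and reads per gene are unknown. The deposited fold changes and p-values were not used. Gene symbols were restored from GENCODE M21, which matched 13570 of the genes tested (99.5%). Groups came from the labels. Log2(value + 1) of genes with mean value of at least 1 was fitted in limma 3.58.1 (R 4.3.3), with residual variances no less than the rounding error of a whole number and the prior degrees of freedom taken from genes with mean value of at least 30. P-values were adjusted by the Benjamini-Hochberg method, and the procedure was tested on simulated data. Named genes are the called ones, the 10 with the smallest p and the 5 with the largest log2 difference in each direction among genes without overlap and with mean value of at least 10, up to 4 of smallest p per list, and a preset set of cardiac genes. The comparison, its gene lists and this rule were chosen with earlier results of these data known. Some genes are not reported here. Alternatives covered the pseudocount, the filter, the scaling, the variance step, the replicate block and libraries left out.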

Additional observations from a re-analysis of the deposited data

How the results depend on the processing

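Mybpc3 and Acta1 were called under all 21 alternatives, with limma adjusted p from 4.86e-06 to 0.00717 for Mybpc3 and from 4.86e-06 to 0.0146 for Acta1. The number of genes called, 2 as reported, was 7 with a pseudocount of 5, 6 among genes with mean value of at least 10, 10 with median-of-ratios factors and 10 with upper-quartile factors. It was 32 with limma's trend, no rounding floor and the prior from all genes, 14 with the rounding floor and the prior from all genes, 23 with the rounding floor and the robust prior and 13 with all 9 libraries in the fit. With libraries left out in turn, 2 to 8 genes were called, 906 to 1562 were higher without overlap and 721 to 1902 lower. The highest count of calls came without treated 3. Without the 2 libraries that held Xist, 3090 genes were higher and 1208 lower without overlap. Smaller groups separate more easily by chance alone, so counts with libraries left out cannot be set against the 747 and 592 of the full groups. Lower genes without overlap numbered 1176 with median-of-ratios factors and 988 without mitochondrially encoded genes. As a replicate block, the replicate numbers gave 30 calls. Deviations of same-numbered libraries from their group means correlated at -0.07, 0.20 and 0.12 over 8805 genes, and those of different-numbered libraries at -0.25 to 0.07. These values do not settle whether the numbers pair the libraries. The labels name no pairing, and none was used in the reported fit. The log2 difference of Myh6 was 0.072 after quantile normalization. With libraries left out in turn, it ran from -0.22 to 0.10 for Myh6, -0.18 to 0.0097 for Actc1, -0.44 to 0.19 for Edn3, -0.85 to 0.26 for Timp1 and -0.33 to 1.80 for Ifit3. The median ran from -0.028 to 0.073 for thin filament and from -0.011 to 0.086 for creatine and energy transfer genes. Without the 2 libraries that held Xist, the median was -0.028 for thin filament, -0.067 for creatine and energy transfer and -0.022 for nuclear-encoded respiratory chain genes. The cause of these changes was not tested. The unknown depth and the rounding to whole numbers limit what values of a few units can show.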

Other observations

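Circadian clock genes, which follow the hour of tissue collection, differed between treated libraries. Arntl, the core activator of the clock, was at 6, 3 and 3 in saline mutant hearts and at 25, 17 and 3 in treated hearts. Nfil3, a clock output repressor, was at 11, 12 and 15 against 38, 46 and 8. For both genes treated 1 and 2 were high and treated 3 was at or below the saline values, the same order as for the HSP70 genes. Npas2, a partner of the Arntl protein, was higher in each treated library, at 9, 5 and 4 against 3, 3 and 2. Of 20 tested clock genes, 2 were higher and none lower without overlap, against 5.48% and 4.34% of all genes. None of the clock genes passed the test. Nfil3 is named after its values were seen. The hour of collection was not given.

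Adrenergic and growth signalling genes held a few separate groups. Adra1b, the alpha-1B adrenergic receptor, was at 20, 18 and 13 in saline mutant hearts and 28, 28 and 28 in treated hearts, with wild-type values of 42, 36 and 38 (log2 difference 0.71, limma adjusted p = 0.274). Gnas, the stimulatory G protein subunit that acts downstream of beta receptors, was at 34, 35 and 36 against 23, 27 and 16 (log2 difference -0.68, limma adjusted p = 0.36). Akt1, a kinase of physiological growth, was at 309, 303 and 287 against 211, 228 and 245 (log2 difference -0.39, limma adjusted p = 0.331), and the cardiac transcription factor gene Gata6 was at 52, 45 and 52 against 58, 61 and 59. Of 17 adrenergic genes, 4 were higher and 1 was lower without overlap, against 5.48% and 4.34% of all genes.

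A few genes of dividing cells were lower in each treated library, and they were picked after their values were seen, with no list tested. Ube2c, which drives exit from mitosis, was at 4, 7 and 8 against 2, 2 and 3, and Kifc1, a spindle motor, was at 3, 6 and 5 against 1, 1 and 2. Spc25, a kinetochore protein, was at 4, 5 and 7 against 2, 1 and 2. The cell-cycle transcription factor gene E2f1 was at 6, 6 and 8 against 3, 2 and 3. All these values are close to the smallest that the whole-number scale can show.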
